A study of Mus musculus with 6 samples.

Results

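The Sox and Klf genes encode 2 families of transcription factors. The members described here are all 35 genes with a single-symbol probe set whose symbol is Sox or Klf followed by a number, 19 Sox and 16 Klf genes, read by 97 of the 45037 probe sets that are not controls (51 for Sox and 46 for Klf genes). They are 35 of the 18193 genes measured. The rule uses symbols and no measured value, but the families were picked with earlier results of these data known.

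The samples were mouse cells labelled as breast cancer stem cells, grown in medium with fetal bovine serum and sorted on CD24 and CD29, 2 proteins of the cell surface. One group was positive for both (CD24+CD29+, 3 arrays) and the other negative for both (CD24-CD29-, 3 arrays). The labels name no strain, cell line, age, genotype or treatment other than the sort. RNA was read on Affymetrix Mouse430_2 arrays, whose values are on a log2 scale, and the design text counts 3 independent biological sample sets, without saying whether these were separate cultures or animals, so p-values measure the spread between these arrays, part of which may be technical.

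Sox proteins bind DNA through an HMG box, a domain that bends the double helix, and are known for setting cell identity, often with a partner factor. Klf proteins bind GC-rich and CACCC sequences through zinc fingers near their C-terminus, and their other parts recruit activators or repressors. In the mammary gland Sox9 and Sox10 are known in stem, progenitor and basal cells, and Klf4 and Klf5 are known regulators of epithelial growth and differentiation. Sox2 and Klf4 are also known as reprogramming factors of pluripotency.

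The arrays of a group correlated at 0.998 to 0.999 over genes and those of different groups at 0.974 to 0.978. The labels were set against markers of cell types. Epithelial markers gave strong signal in both groups (list means per array of 11.46 to 11.52 in CD24+CD29+ and 11.67 in CD24-CD29- cells), with Epcam at 14.11 and 14.13. Of these 10 markers 2 were higher in CD24+CD29+ cells (Krt7 by 0.38 and Esrp1 by 0.31) and 6 lower, led by Krt19 (-0.95) and Cldn4 (-0.53). Of the genes that name the sort, Itgb1 (CD29) was at 10.94 and 10.06, and Cd24a was at 13.00 in CD24+CD29+ cells and still at 12.79 in CD24-CD29- cells. The lists of leukocyte, endothelial, erythroid, adipocyte, and melanocyte and glial markers had means of 5.30 to 6.54 in CD24+CD29+ and 5.47 to 6.72 in CD24-CD29- cells, and Ptprc, which defines leukocytes, was at 4.85 and 4.94. Of 10 leukocyte markers 0 were higher and 6 lower, led by Csf1r (6.75 against 7.63). Of all genes 36.5% were lower, and 56.6% of those with a mean of 5 to 6. Fibroblast markers were higher in CD24+CD29+ cells for 10 of 10 genes (list means of 9.38 to 9.45 against 8.47 to 8.49), led by the collagen genes Col1a2 (difference 2.02) and Col3a1 (1.73). Basal mammary markers had list means of 10.13 to 10.18 against 9.85 to 9.87, with 5 of 8 genes higher (among them Krt17 by 1.04 and Krt14 by 0.99), 2 lower (Mylk -0.84 and Oxtr -0.26) and 1 not past the threshold. Their part in the results below was not tested. In bulk RNA, fewer cells of a type and less RNA per cell cannot be told apart.

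For orientation, the 250 bases before the transcription start are shown for 4 members on which the comparison turns: Sox11 and Sox13, with the largest rise and fall of the Sox genes, and Klf2 and Klf4, activators of the Klf family that were lower in CD24+CD29+ cells on the deposited scale but not under the poly-A scaling described further on. The sequences are from RefSeq, build GRCm38.p6, written 5′ to 3′ on the gene's strand. Capitals mark GGGCGG on either strand (CCGCCC is its reverse complement), the GC box that Sp and Klf proteins can bind.
Sox11 promoter: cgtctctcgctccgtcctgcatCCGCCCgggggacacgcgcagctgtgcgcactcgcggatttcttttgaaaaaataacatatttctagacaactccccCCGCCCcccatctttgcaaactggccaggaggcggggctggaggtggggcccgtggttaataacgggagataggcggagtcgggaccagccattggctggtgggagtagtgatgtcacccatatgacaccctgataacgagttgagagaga
Sox13 promoter: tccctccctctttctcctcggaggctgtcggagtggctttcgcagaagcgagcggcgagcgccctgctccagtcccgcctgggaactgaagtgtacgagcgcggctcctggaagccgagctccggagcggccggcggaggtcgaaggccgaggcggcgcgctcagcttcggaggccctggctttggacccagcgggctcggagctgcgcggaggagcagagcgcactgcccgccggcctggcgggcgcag
Klf2 promoter: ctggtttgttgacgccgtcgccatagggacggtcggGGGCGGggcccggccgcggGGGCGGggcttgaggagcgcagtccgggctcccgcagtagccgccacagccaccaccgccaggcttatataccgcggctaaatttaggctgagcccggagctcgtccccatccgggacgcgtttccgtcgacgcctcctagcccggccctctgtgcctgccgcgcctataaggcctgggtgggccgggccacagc
Klf4 promoter: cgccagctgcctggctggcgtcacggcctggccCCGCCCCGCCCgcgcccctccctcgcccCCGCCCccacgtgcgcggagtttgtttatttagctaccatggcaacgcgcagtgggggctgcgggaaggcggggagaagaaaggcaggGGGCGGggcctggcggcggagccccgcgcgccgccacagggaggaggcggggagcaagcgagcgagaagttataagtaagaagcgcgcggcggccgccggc
They lie at chr12:27342719-27342968 (minus strand), chr1:133424213-133424462 (minus strand), chr8:72318812-72319061 (plus strand) and chr4:55532476-55532725 (minus strand), in the order printed. GGGCGG occurred 2 times in the windows of Sox11 and Klf2 and 4 times in that of Klf4, and that of Sox13 had 0. RefSeq's table held 30 such windows for 25 of the 35 members. At least 1 GGGCGG was in 9 of 12 Klf windows (75%) and 8 of 18 Sox windows (44.4%), against 32.7% of all 32851 windows. The windows of the members were also richer in G and C, with a median of 68.0% for Klf and 59.4% for Sox genes against 52.4% over all windows. Several of the Sox windows belong to Sox6, at 34.0% to 60.8% G and C, and only that at 60.8% has GGGCGG. The Sox share and median count windows and are not per gene. The CACCC box CCACACCC was in 2 of 12 Klf and 2 of 18 Sox windows (3.2% of all), and ACAAAG, a Sox core motif, was in 0 of 12 Klf and 6 of 18 Sox windows (16.5% of all), where 5 of these 6 belong to Sox6. Both strands were searched. CCACACCC can share its last letters with the reverse complement of GGGCGG, so these matches are not independent, and a match describes letters, not a bound site.

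The comparison asked which Sox and Klf factors differed in RNA level between the 2 sorted populations. Sox11 was 4.35-fold higher in CD24+CD29+ cells, followed by Sox2 at 1.98-fold, Sox6 at 1.73-fold and Sox5 at 1.52-fold, while Sox13 was 2.04-fold lower. On the Klf side all 6 members of the activator subgroup were lower in CD24+CD29+ cells, led by Klf2 at 2.01-fold, although all 6 differences turn positive under the poly-A scaling, Klf1 did not pass after quantile or cyclic loess normalization, and Klf6 was at 0.000521 with its probe sets averaged. Of all genes 36.5% were lower. The 2 measured CtBP-binding members, Klf3 and Klf12, were higher by 1.52-fold and 1.12-fold, but Klf12 turned to -0.01 after quantile or cyclic loess normalization. Klf3 was at a log2 difference of 0.11 with its probe sets averaged. Poly-A controls are bacterial RNAs that can be added to a sample, and their 27 probe sets were higher in CD24-CD29- cells by a median of 1.14. Scaling to them lifts the difference of all genes by 1.09, and whether the same amount was added to each sample was not tested.

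Of the 19 Sox genes, 7 were higher in CD24+CD29+ cells, 6 were lower and 6 did not pass an adjusted p of 0.05 (limma, Benjamini-Hochberg over all 18193 genes). Of the 16 Klf genes, 4 were higher, 8 were lower and 4 did not pass. Passing was common on these arrays: 70.8% of all genes passed, 34.4% as higher and 36.5% as lower, so 25 of 35 members (71.4%) is close to the background. At least 2-fold differences were found for 3 members (Sox11, Sox13 and Klf2) and for 4.67% of all genes, 3.01% as higher and 1.66% as lower. The groups did not overlap for 26 of 35 members and for 73.6% of all genes. The median difference was 0.03 for Sox and -0.14 for Klf genes, against -0.04 over all genes. Under the poly-A scaling these medians become 1.12, 0.95 and 1.05, and 18 Sox and 15 Klf genes are then higher with 0 lower. Directions below are those on the deposited scale, relative to other genes.

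**Figure D1:**
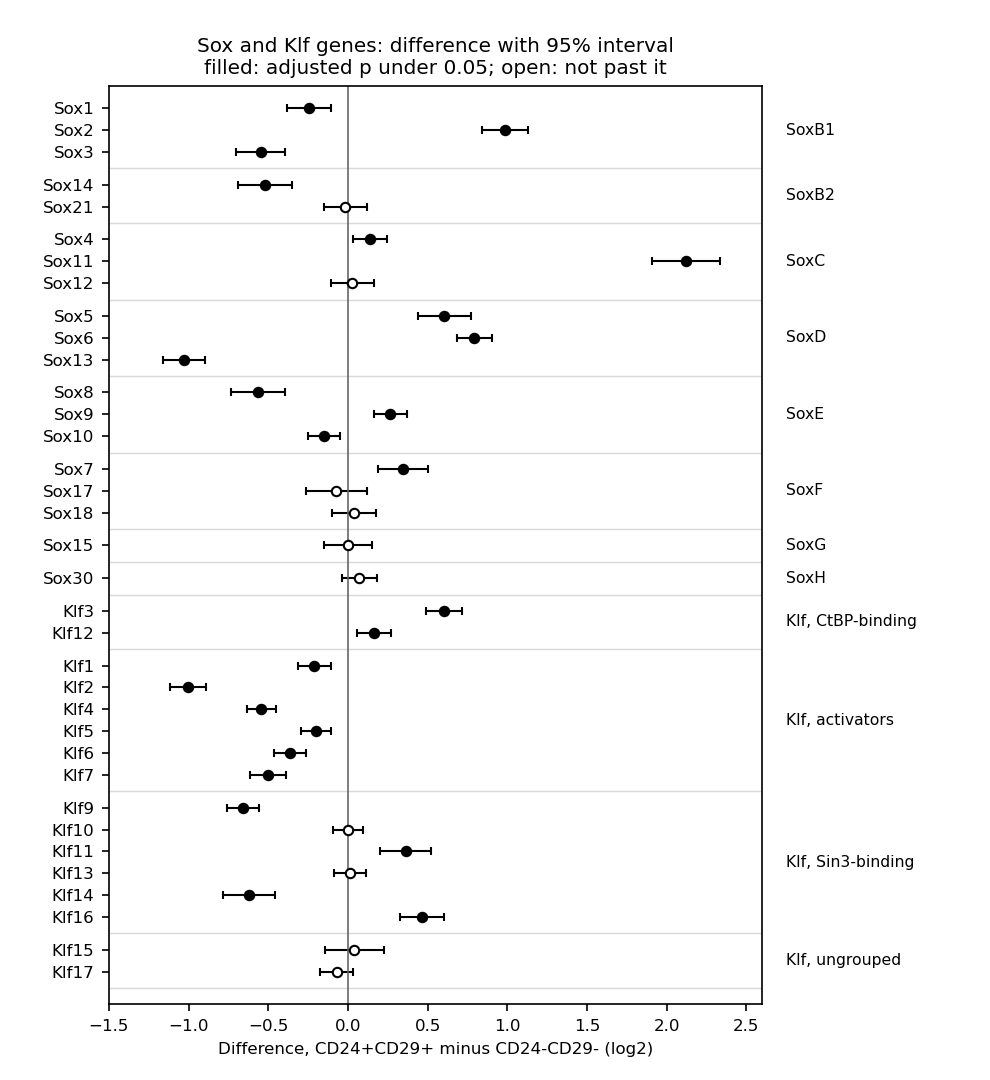
Difference between CD24+CD29+ and CD24-CD29- cells (log2, x axis) for each of the 35 Sox and Klf genes (y axis), with the 95% interval of the fit; filled points have an adjusted p under 0.05. Sox11 lies farthest right at 2.12, Sox13 and Klf2 farthest left at -1.03 and -1.005, and the 6 Klf activators all lie left of 0, where the poly-A scaling would add 1.09 to every point.

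The SoxC factors Sox4, Sox11 and Sox12 are activators known from developing neurons and from progenitor cells, and Sox4 from invasive carcinoma. Sox11 had values of 8.90, 8.76 and 8.80 in CD24+CD29+ cells, against 6.89, 6.69 and 6.52 in CD24-CD29- cells. Every CD24+CD29+ array was above every CD24-CD29- array. The difference of 2.12 (SE 0.09, limma adjusted p = 1.3e-06) was the 15th largest among the 6251 genes that were higher. All 6 probe sets of Sox11 were higher, by 0.66 to 2.12, so the direction does not rest on the one chosen. Sox4 was bright, at 12.96 ± 0.06 and 12.82 ± 0.02 (SD, n = 3 each), and its brightest probe set differed by only 0.14 (SE 0.05, limma adjusted p = 0.029). That call was lost without CD24+CD29+ replicate 1 or 2 or without CD24-CD29- replicate 2 or 3 (adjusted p of 0.068 to 0.092). Less bright Sox4 probe sets differed more, by 0.77 and 0.80, and of its 8 probe sets 4 were higher, 0 were lower and 4 did not pass. Sox12 had a difference of 0.03 with a 95% interval of -0.11 to 0.16, and none of its 3 probe sets passed, but it passed as lower (-0.17) after quantile and cyclic loess normalization (adjusted p = 0.014 and 0.015).

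The SoxD factors Sox5, Sox6 and Sox13 lack a transactivation domain and are known to act with other factors; Sox5 and Sox6 support Sox9 in cartilage. They differed among themselves. Sox6 had values of 9.62, 9.57 and 9.67 in CD24+CD29+ cells, against 8.78, 8.84 and 8.85 in CD24-CD29- cells (difference 0.79, SE 0.05, limma adjusted p = 4.7e-06), with no overlap between the groups. All 4 Sox6 probe sets were higher, by 0.44 to 1.03. Sox5 was at 7.63 ± 0.07 against 7.02 ± 0.12 (SD, n = 3 each; difference 0.61), but of its 7 probe sets 2 were higher, 1 was lower and 4 did not pass. Averaging all 7 left a difference of 0.03 (adjusted p = 0.61). Sox13, read by 1 probe set, went the other way, at 7.07, 7.18 and 7.17 in CD24+CD29+ cells against 8.24, 8.09 and 8.17 in CD24-CD29- cells. The difference was -1.03 (SE 0.06, limma adjusted p = 3.4e-06), again without overlap.

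Among the SoxE factors, Sox9 and Sox10 gave strong signal in both groups and differed little. Sox9, which directs cartilage formation and is used by stem cells of several epithelia, was at 10.37 ± 0.06 against 10.10 ± 0.01 (SD, n = 3 each; difference 0.27, limma adjusted p = 0.0012). Its other 2 probe sets did not pass, and averaging all 3 left 0.06 (adjusted p = 0.17). Sox10, a factor of the neural crest and of its glia and pigment cells, was at 11.27 ± 0.02 against 11.42 ± 0.04 (difference -0.15, limma adjusted p = 0.014), a call that median centring ended (-0.10, adjusted p = 0.084). Of 8 markers of melanocytes and glia 1 was higher and 5 were lower, and 3 were dim: Dct was at 5.09 and 5.38, Mlana at 4.82 and 5.19, and Tyrp1 at 5.22 and 5.39. The others were not dim: Mbp was at 9.68 and 9.73, and Cnp, which was higher, at 8.81 and 8.68. Pmel was at 6.70 and 7.09, S100b at 6.27 and 6.54, and Tyr at 5.67 and 5.67. Sox8, the third SoxE factor, was at 5.07, 5.00 and 5.08 in CD24+CD29+ cells and 5.72, 5.66 and 5.46 in CD24-CD29- cells (difference -0.57, SE 0.07, limma adjusted p = 0.00025). The groups do not overlap, but these values lie near 5.32, under which 25% of the probe sets fall. Probe sets whose mean over all 6 arrays is under it are called dim.

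Sox2, the SoxB1 factor that maintains neural and pluripotent stem cells, had values of 8.37, 8.26 and 8.24 in CD24+CD29+ cells, against 7.33, 7.39 and 7.21 in CD24-CD29- cells (difference 0.98, SE 0.06, limma adjusted p = 6.9e-06). All CD24+CD29+ arrays were higher, and 1 probe set reads the gene. The other SoxB1 members, neural factors as well, were lower: Sox3 was at 5.87, 5.97 and 5.88 in CD24+CD29+ cells against 6.38, 6.59 and 6.39 in CD24-CD29- cells (difference -0.55, SE 0.07), and Sox1 differed by -0.25, a call that ended after quantile (-0.10, adjusted p = 0.19) and cyclic loess normalization (-0.10, adjusted p = 0.17). Of the SoxB2 repressors, Sox14 was lower (difference -0.52) at 4.99 against 5.51, dim by its mean over all arrays. Sox21 differed by -0.02 (95% interval -0.15 to 0.12), but passed as lower after quantile normalization (-0.16, adjusted p = 0.048) and with its probe sets averaged (-0.11, adjusted p = 0.0497). Of the SoxF factors of the vascular lining, Sox7 was higher by 0.35, at 5.94 against 5.59, while Sox17 (-0.07) and Sox18 (0.04) did not pass. The other Sox7 probe set, a dim one, differed by 0.07 and did not pass. Without CD24+CD29+ replicate 1, Sox17 passed as lower (-0.17, adjusted p = 0.031). Sox15 (0.00) and the testis factor Sox30 (0.07) did not pass, with 95% intervals of -0.15 to 0.15 and -0.04 to 0.18. Sox30 passed as higher after quantile normalization (0.19, adjusted p = 0.0104), cyclic loess (0.20, adjusted p = 0.0087) and median centring (0.13, adjusted p = 0.049). Of 10 endothelial markers, 6 of them dim, 2 were higher, 1 was lower and 7 did not pass.

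**Figure D2:**
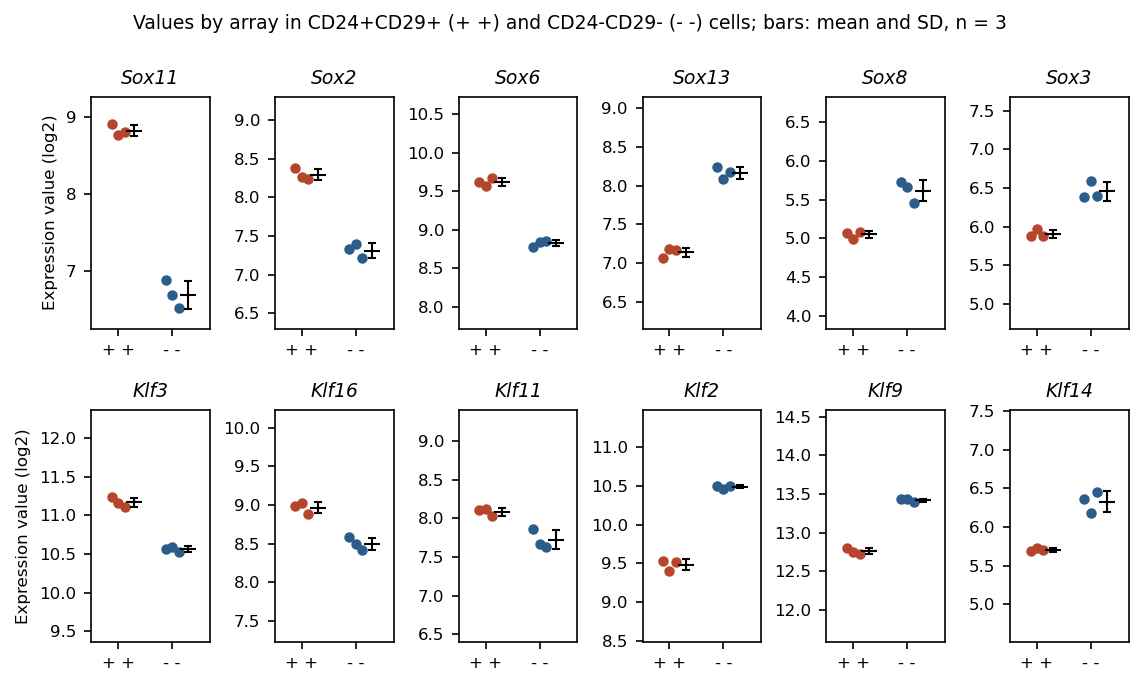
Expression values (log2, y axis) on each array for the 3 largest rises and falls of each family, in CD24+CD29+ (left, n = 3) and CD24-CD29- cells (right, n = 3), with mean and SD; every panel spans 3 log2 units. The genes were picked by their differences, so that the groups do not overlap in the 12 panels is no separate result (73.6% of all genes do not overlap). The gap is widest for Sox11, at 8.82 against 6.70.

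The Klf activators, which recruit acetyltransferases, were lower in CD24+CD29+ cells on the deposited scale, 6 of 6 with a median difference of -0.43, while under the poly-A scaling the 6 differences lie at 0.08 to 0.89. All 6 are then below the median of all genes, 1.05. This order was fixed in advance, since the scaling adds nearly the same amount to every gene. Klf2, a factor of quiescent endothelial cells and lymphocytes, had values of 9.54, 9.40 and 9.52 in CD24+CD29+ cells, against 10.51, 10.47 and 10.50 in CD24-CD29- cells (difference -1.005, SE 0.05, limma adjusted p = 2.1e-06). Klf4, which promotes cell cycle exit and barrier formation in epithelia, was at 12.84 ± 0.01 against 13.38 ± 0.02 (SD, n = 3 each; difference -0.54, limma adjusted p = 1.3e-05), and its other probe set gave -0.46. Klf5, known from proliferating epithelial cells, differed by -0.20, and all 3 of its probe sets were lower. Klf7 differed by -0.50, with 3 of 4 probe sets lower and 1 not past the threshold. Klf6 differed by -0.36 on its brightest probe set, but 2 of its 5 probe sets were higher (0.67 and 0.49), and averaging them left 0.00, not past the threshold. Klf1, the erythroid factor, differed by -0.21 at 5.37 against 5.58. That call ended after quantile (-0.06, adjusted p = 0.22) and cyclic loess normalization (-0.07, adjusted p = 0.19). Among the erythroid markers 6 of 7 were lower (list means of 5.30 to 5.39 against 5.65 to 5.72). Lower calls were common at such low signal: in the range from 5 to 6 they made up 56.6%, and the median difference was -0.22. Whether the markers and Klf1 are linked was not tested. In the promoter windows printed, GGGCGG occurs in Klf2, Klf4 and Sox11 and not in Sox13. These 4 were picked with their differences known, and a relation of the motif to direction was not tested.

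Klf3 and Klf12, repressors that bind the corepressor CtBP, were higher, Klf12 not after quantile or cyclic loess normalization. Klf3 had values of 11.23, 11.16 and 11.11 in CD24+CD29+ cells, against 10.57, 10.59 and 10.52 in CD24-CD29- cells (difference 0.60, SE 0.05, limma adjusted p = 2.1e-05), with no overlap. Of its 7 probe sets 3 were higher, 1 was lower (-0.61) and 3 did not pass. Averaging all 7 left a difference of 0.11, still past the threshold. Klf12 differed by 0.16 on its brightest probe set and by 0.52 and 1.00 on the next ones, while its dim pair of probe sets was lower (-0.47 and -0.49). Its value of -0.01 after quantile or cyclic loess normalization was not past the threshold. Of the corepressor genes, Ctbp2 was higher by 1.61-fold, and Ctbp1, named after its value was seen, by 1.38-fold.

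The Klf factors that bind the corepressor Sin3 split. Klf9, a glucocorticoid-induced factor, had values of 12.81, 12.75 and 12.72 in CD24+CD29+ cells, against 13.43, 13.43 and 13.40 in CD24-CD29- cells (difference -0.66, SE 0.04, limma adjusted p = 7.3e-06). Of its 7 probe sets 5 were lower, 1 was higher by 0.63 and 1 did not pass. Averaging all 7 left -0.25, still past the threshold. Klf14 was at 5.68, 5.73 and 5.71 in CD24+CD29+ cells against 6.36, 6.18 and 6.45 in CD24-CD29- cells (difference -0.62, SE 0.07). Klf16 was higher, at 8.99, 9.02 and 8.88 in CD24+CD29+ cells against 8.58, 8.50 and 8.42 in CD24-CD29- cells (difference 0.46, SE 0.06, limma adjusted p = 0.00026). Klf11 was at 8.11, 8.12 and 8.02 in CD24+CD29+ cells against 7.86, 7.67 and 7.63 in CD24-CD29- cells (difference 0.36, SE 0.07). The groups did not overlap for these 4 genes, all past the threshold, nor for 73.6% of all genes. Klf10, induced early by TGF-beta, differed by -0.00217 (95% interval -0.10 to 0.09) and Klf13 by 0.01 (-0.08 to 0.11), but both passed as lower after quantile (-0.14 and -0.13, adjusted p = 0.013 and 0.018) and cyclic loess normalization (-0.15 and -0.13, adjusted p = 0.012 and 0.016). Outside the subgroups, Klf15 (0.04) and Klf17 (-0.07) did not pass.

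Taking every probe set on its own, 32 of 97 were higher, 32 were lower and 33 did not pass (66.0% passing, against 63.9% of all probe sets, 29.2% as higher and 34.8% as lower). For Sox genes the counts were 19 higher and 9 lower of 51, and for Klf genes 13 higher and 23 lower of 46; the poly-A scaling turns the 97 to 95 higher and 0 lower. Of the 21 genes with several probe sets, 5 had all of them past the threshold in 1 direction (Sox3, Sox6, Sox11, Klf4 and Klf5), and 7 had probe sets past it in both directions (Sox5, Klf3, Klf6, Klf9, Klf12, Klf13 and Klf17). For Klf13 the gene-level value hides this, since its brightest probe set differed by 0.01, the next by 0.56 and a dim one by -0.50.

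**Figure D3:**
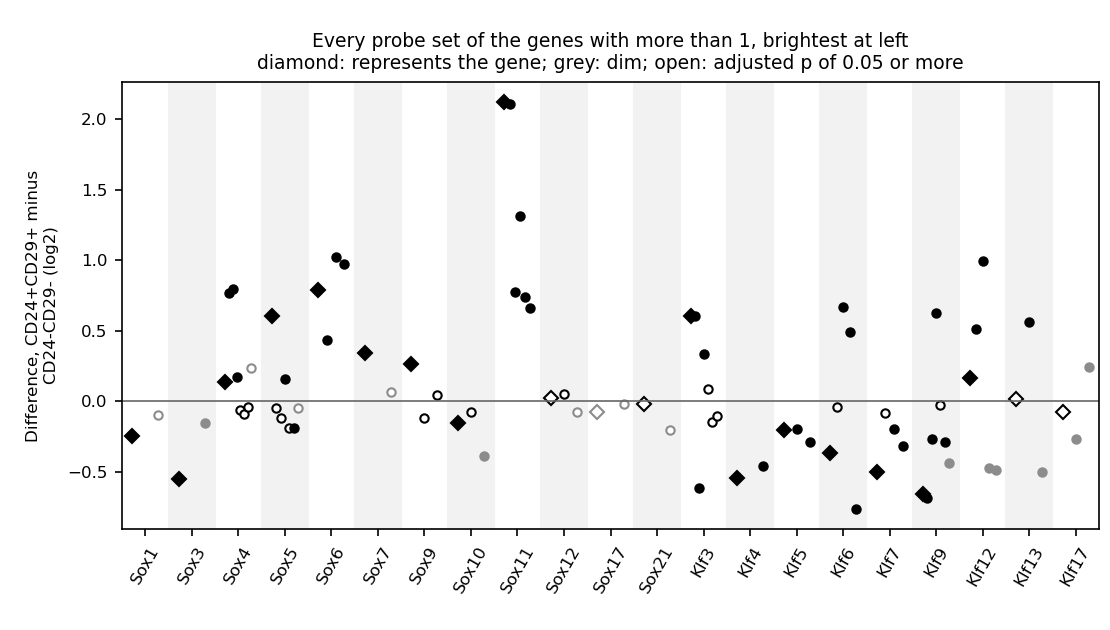
Difference (log2, y axis) on every probe set of the 21 Sox and Klf genes that have more than 1, ordered by brightness within a gene; diamonds represent the gene, grey points are dim and open points did not pass. The 6 Sox11 and 4 Sox6 probe sets all lie above 0, all those of Klf4 and Klf5 lie below it unless the poly-A scaling is applied, and those of Klf3, Klf6, Klf9 and Klf12 lie on both sides.

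The members were spread over the range of signal, and direction went with signal among all genes. Of genes with a mean of 5 to 6, 8.22% were higher and 56.6% lower, and of the 7 members there 1 was higher and 4 were lower. Of genes with a mean of 7 to 8, 49.6% were higher and 25.5% lower, and of the 9 members there 5 were higher and 1, Sox13, was lower. Of the 2963 genes with a mean of at least 10, 51.3% were higher and 27.2% lower, and of the 7 Klf genes at that level 1 was higher, 4 were lower and 2 did not pass. Within that pool the shares changed: 49.8% were higher and 30.4% lower at 11 to 12, where Klf5 and Klf6 lie, and 31.1% were higher and 34.5% lower at 13 to 14, where Klf4 and Klf9 lie. Only 3 members, Sox14, Sox17 and Sox30, were dim, against 18.3% of all genes.

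Other genes of these pathways were read from the same fit. Beside the counts of each list stand the shares over all genes, 34.4% higher and 36.5% lower, which change with signal as given above. Of the listed cartilage targets of Sox9, Sox5 and Sox6, 11 of 17 were higher in CD24+CD29+ cells, 5 were lower and 1 did not pass. Their median difference was 0.36, against -0.04 over all genes, and 15 are higher and 1 (Comp) lower under the poly-A scaling. Without the dimmest 20% or 40% of genes 3 were lower. Acan, the large proteoglycan of cartilage, was higher by 4.24-fold (9.17 ± 0.08 against 7.09 ± 0.07, SD, n = 3 each), and the collagen II gene Col2a1 by 2.09-fold (9.70 against 8.64). Comp, a pentameric matrix protein, went the other way by 3.85-fold (6.61 against 8.55), and Snorc, a small membrane proteoglycan, was lower by 2.04-fold. The fibroblast markers, matrix genes among them, had a median difference of 0.64, and their part in these values was not tested.

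Of the listed targets of Sox4 and Sox11, 9 of 14 were higher and 5 lower, with a median of 0.42. The list gives no direction of regulation, so these counts do not measure Sox activity. The lower genes numbered 3 with probe sets averaged and 1 without the dimmest 40% of genes, which drops members of the list. Bmp6, a ligand of the TGF-beta family that the Klf list also holds, was higher by 2.95-fold and the neuronal tubulin gene Tubb3 by 2.14-fold (5.80 against 4.70, where the CD24-CD29- level is under the dim limit and differences are compressed). Elavl3 and Hes5, also neural genes, were lower by 1.58-fold and 1.33-fold. Of the Sox10 targets, 3 of 17 were higher, 9 lower and 5 not past the threshold, with a median of -0.18. Without the dimmest 40% of genes 4 were lower, and with probe sets averaged 1 was higher. The receptor gene Ret was higher by 1.45-fold and Mia, a secreted protein of cartilage and melanoma, by 1.11-fold, and Erbb3 (1.36-fold) and Pmel (1.31-fold) were lower. With the poly-A scaling all 14 and all 17 genes of these lists are higher.

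Of the Klf targets, 9 of 25 were higher, 9 lower and 7 not past the threshold, and their median of -0.04 was near that of all genes. The poly-A scaling makes all 25 higher. This list does not separate genes that Klf factors activate from those they repress, so its counts do not measure Klf activity. The laminin chain gene Lama1 was higher by 3.12-fold and Bmp6 led beside it, while Krt19, a keratin of simple epithelia, was lower by 1.93-fold and Cdkn1a, the cell cycle inhibitor p21, by 1.60-fold. Of the kinases, cofactors and turnover factors of Klf proteins, 13 of 23 were higher, 6 lower and 4 not past the threshold, with a median of 0.23. The acetyltransferase gene Kat2a was higher by 1.85-fold with Ctbp2 next, whereas the ubiquitin ligase genes Fbxo32 and Fbxw7 were lower by 1.77-fold and 1.65-fold, or all 23 genes higher under the poly-A scaling.

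**Figure D4:**
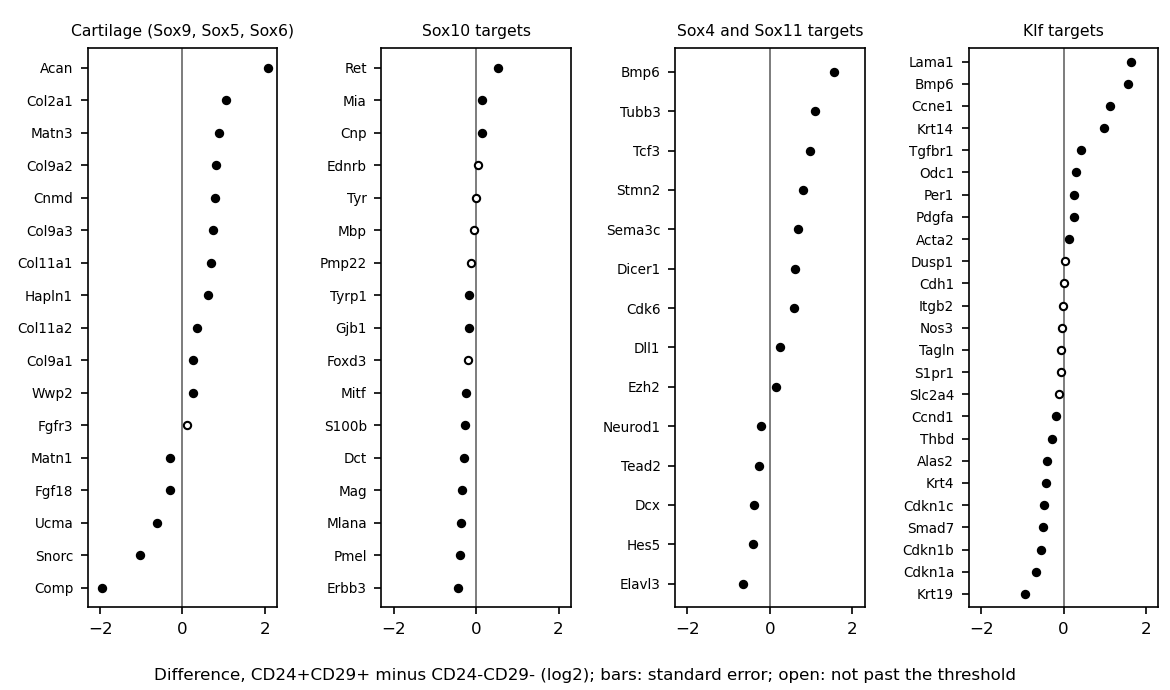
Difference (log2, x axis) with the standard error of the fit, often smaller than the point, for the measured genes of 4 target lists (y axis); open points did not pass. Acan (2.08) and Comp (-1.94) mark the ends of the cartilage list, and the Klf list splits into 9 genes above and 9 below 0 that passed, all of them above 0 under the poly-A scaling.

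Of the related factors, the Sp factors, the nearest relatives of the Klf family, had 3 of 7 higher, 0 lower and 4 not past the threshold, led by Sp4 (1.31-fold) and Sp1 (1.16-fold), and 1 was lower with probe sets averaged, with the replicate block or without CD24-CD29- replicate 1. Of other proteins with an HMG box, 8 of 16 were higher, 6 lower and 2 not past the threshold. Hmgb2, a chromatin protein of dividing cells, was higher by 1.76-fold and Cic by 1.65-fold, and Tcf7l1, which represses Wnt targets, was lower by 2.01-fold and Tox2 by 1.80-fold. Of the partner factors of Sox proteins, 5 of 17 were higher, 7 lower and 5 not past the threshold. Quantile normalization gave 6 higher and 4 lower, and leaving out the dimmest 20% or 40% of genes, which drops members of the list, gave 5 higher with 4 or 2 lower. Gli3 was higher by 1.92-fold and Notch1 by 1.53-fold, and Pou3f2, a partner of Sox2 and Sox11 in neural cells, was lower by 1.53-fold at 6.25 against 6.86, and Egr2 by 1.502-fold. In these 3 lists 0 genes are lower under the poly-A scaling.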

How the data were processed

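Per the submitters' processing notes the authors used RMA and Partek software, whose versions and order were not given in the sources used here. The deposited values are log2 expression per probe set, with equal array means (6.93) and no detection calls, and background compresses differences of dim probe sets. Their spread was not equal, with an SD of 2.10 to 2.14 in CD24+CD29+ and 2.01 to 2.03 in CD24-CD29- arrays. The lower quartile was 5.205 to 5.267 in CD24+CD29+ and 5.367 to 5.405 in CD24-CD29- arrays. The part of this shift in the calls of members with low signal was not tested. No genome build is given for them. Probe sets were named through the platform annotation, which can be old: of 45037 that are not controls, 34945 had 1 symbol, 932 had several and 9160 had none there. All 35 members matched a RefSeq gene (GRCm38.p6) by Entrez identifier. A gene was represented by its brightest probe set over the 6 arrays, _x_at only where it had no other. The groups were compared with limma 3.58.1 (R 4.3.3; lmFit, eBayes) over 18193 genes, and apart from that over 45037 probe sets, with Benjamini-Hochberg adjustment over all of them and a threshold of 0.05. The fit was tested on simulated data. Brightness ordered probe sets within a gene, set the dim limit and sorted genes into ranges of mean signal. Levels of genes and marker lists were described, but no difference in level between genes was tested. Members, lists and tests were chosen with earlier results of these data known. Named in full are members with an adjusted p under 0.05 and at least a 2-fold difference, and the 3 largest called differences in each direction of each family; of other lists the 2 largest in each direction. Alternatives were normalization, scaling, filters on dim genes, the choice of probe set, the variance model, a replicate block and leaving out each array. With 3 arrays a group, precision is limited by their number (median SE 0.06 over genes).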

Additional observations from a re-analysis of the deposited data

How the results depend on the processing

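Over 16 other settings, Sox2, Sox6, Sox7, Sox11, Klf3, Klf11 and Klf16 were higher and past the threshold wherever they were measured. Klf2, Klf4, Klf5, Klf7, Klf9, Klf14, Sox3, Sox8, Sox13 and Sox14 were lower and past it wherever measured, except under the poly-A scaling. Scaling to the 27 poly-A control probe sets (among which those of trp differed by -0.14 to -0.07 and those of the other RNAs by -1.55 to -0.42) moved the median of all genes to 1.05, that of the Sox genes to 1.12 and that of the Klf genes to 0.95. It gave 18 higher and 0 lower Sox genes, 15 higher and 0 lower Klf genes, 95 higher and 0 lower member probe sets, and 17840 higher and 174 lower of all genes. Because it adds nearly the same amount to every gene, differences below 0 turned positive, those of Klf10, Klf17, Sox17 and Sox21 having not passed before: Klf1 0.88, Klf2 0.084, Klf4 0.54, Klf5 0.89, Klf6 0.73, Klf7 0.59, Klf9 0.43, Klf10 1.09, Klf14 0.47, Klf17 1.02, Sox1 0.84, Sox3 0.54, Sox8 0.52, Sox10 0.94, Sox13 0.0595, Sox14 0.57, Sox17 1.015 and Sox21 1.07, of which Klf2 (adjusted p = 0.15) and Sox13 (0.45) did not pass. After quantile normalization Klf12 (-0.0123), Klf13 (-0.13) and Sox12 (-0.17) reversed, and after cyclic loess Klf12 (-0.0133), Klf13 (-0.13) and Sox12 (-0.17) did so, Klf13 and Sox12 past the threshold in both; both settings ended the calls of Klf1 and Sox1 and added Klf10 as lower and Sox30 as higher, and the cause was not tested. The Sox median was 0.083 after quantile normalization, 0.10 after cyclic loess and 0.0826 after median centring, and the Klf median was -0.0812 after median centring. Without the dimmest 20% of genes the Klf median was -0.20. Without the dimmest 40%, which leaves fewer genes, 2 Sox genes and 2966 of all genes were lower, and the medians were 0.20 for Sox, -0.00217 for Klf and 0.15 for all genes. The mean of the probe sets gave medians of 0.00249 for Sox and -0.0165 for Klf genes, turned Klf6 to 0.000521 and ended the calls of Sox5 and Sox9. Averaging left Klf3 at 0.11 and Klf9 at -0.25, both still past the threshold. Leaving out 1 array gave 6 to 7 Sox genes higher and 6 to 7 lower, 4 Klf genes higher and 8 lower in each case, medians of 0.000918 to 0.0508 for Sox and -0.15 to -0.11 for Klf genes, 28 to 31 member probe sets higher and 29 to 35 lower, and 5793 to 6062 of all genes higher and 5944 to 6345 lower. With the replicate number as a block, 7 Sox genes were higher and 6 lower, 4 Klf genes higher and 8 lower, no member's call changed, and 6200 of all genes were higher and 6667 lower. Whether the replicate numbers pair the samples could not be decided. Deviations of same-numbered arrays correlated at 0.22, -0.05 and 0.04, and those of differently numbered arrays at -0.24 to 0.21. Not every array correlated best with its own number. Deviations from a group mean sum to 0 over so few arrays, so these correlations are not independent.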
